A study of Rattus norvegicus with 7 samples.

Results

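The 10 genes described here encode antimicrobial proteins and alarmins of epithelia: Lcn2, S100a8, S100a9, Defb4, Defb1, Slpi, Ltf, Lpo, Camp and Pigr. They were picked by symbol from the 17246 genes of each deposited table, with the outcome of the UVB comparison known, and all 10 were present. The tissue was the meibomian gland, a modified sebaceous gland of the lid margin whose lipids coat the tear film. All rats were wild-type female Sprague-Dawley rats, 3 months old. The 4 control libraries came from rats without treatment. The 3 UVB libraries came from rats whose shaved upper eyelids received 300 mJ/cm2 of ultraviolet B light in 5 min per day on 5 days. The labels do not say whether controls were shaved, or how long after the last exposure the glands were taken. Each library is 1 column of the tables and is called control a to d or UVB a to c here, letters that pair nothing.

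Antimicrobial proteins are part of the innate defence that epithelia carry on their surface and in their secretions. Some kill or block microbes directly: beta-defensins and cathelicidin disturb microbial membranes, lactoferrin and lipocalin 2 keep iron from bacteria, and lactoperoxidase makes oxidising acids from hydrogen peroxide. Alarmins such as the S100A8 and S100A9 pair are proteins of the cell interior that, once released, signal through pattern receptors. At the ocular surface these proteins come from the lacrimal gland, the conjunctiva, the lid epidermis and, in inflammation, from neutrophils. In whole tissue, fewer cells of a type and less RNA per cell cannot be told apart.

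The libraries held 20680237 to 28784941 counts. Between UVB and control, 6.30% of the 13709 genes tested had an adjusted p under 0.05 and were higher after UVB, and 6.74% were lower (edgeR quasi-likelihood test with Benjamini-Hochberg adjustment). Of the 10 genes, 8 had enough counts to be tested, and 5 of these were called higher and 0 lower. Lcn2 passed the filter on low counts through its UVB libraries alone. The 5 were Lcn2, Defb4, Slpi, Lpo and S100a9, and the 3 not called were S100a8, Defb1 and Pigr. DESeq2 also called Pigr, as lower, and so called 1 gene lower where edgeR called 0; by edgeR, 2 genes lower than control, Pigr and Defb1, had an unadjusted p under 0.05. Since the genes were chosen with this comparison known, their calls and fold changes are a description and are given without p-values. The gene lists used below were also chosen with earlier results of these data known. Adjusted p-values printed for their genes are therefore a description too. Counts of all 10 genes were whole numbers in every library, and none of the 10 overlaps another gene in the RefSeq annotation of GRCr8.

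Per unit of transcript length, the 10 genes spanned a wide range in untreated glands. The order is given in TPM, the authors' length-scaled transcript abundance, which allows levels of different genes to be set side by side. S100a8 was highest at 1354 ± 76.2 TPM (SD, n = 4) and S100a9 followed at 336 ± 24.3 TPM (SD, n = 4). Together they made up 87.7% ± 0.925 of the TPM of the 10 genes in controls (SD, n = 4) and 79.9% ± 3.32 after UVB (SD, n = 3). Below them stood Defb1 at 134 ± 7.32 TPM, Defb4 at 70.9 ± 9.94 TPM, Slpi at 27.4 ± 9.95 TPM, Pigr at 3.30 ± 0.549 TPM and Lpo at 0.505 ± 0.0332 TPM (SD, n = 4 each). Ranges over the control libraries did not overlap between neighbours in this order down to Lpo. Camp, Lcn2 and Ltf closed the order with overlapping ranges, each at 3 counts or fewer in every control. After UVB the order was S100a8, S100a9, Defb4, Defb1, Slpi, Lcn2, Pigr, Lpo, Camp and Ltf. Defb1 and Slpi overlapped in that order, as did Pigr and Lpo, and Camp and Ltf.

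**Figure D1:**
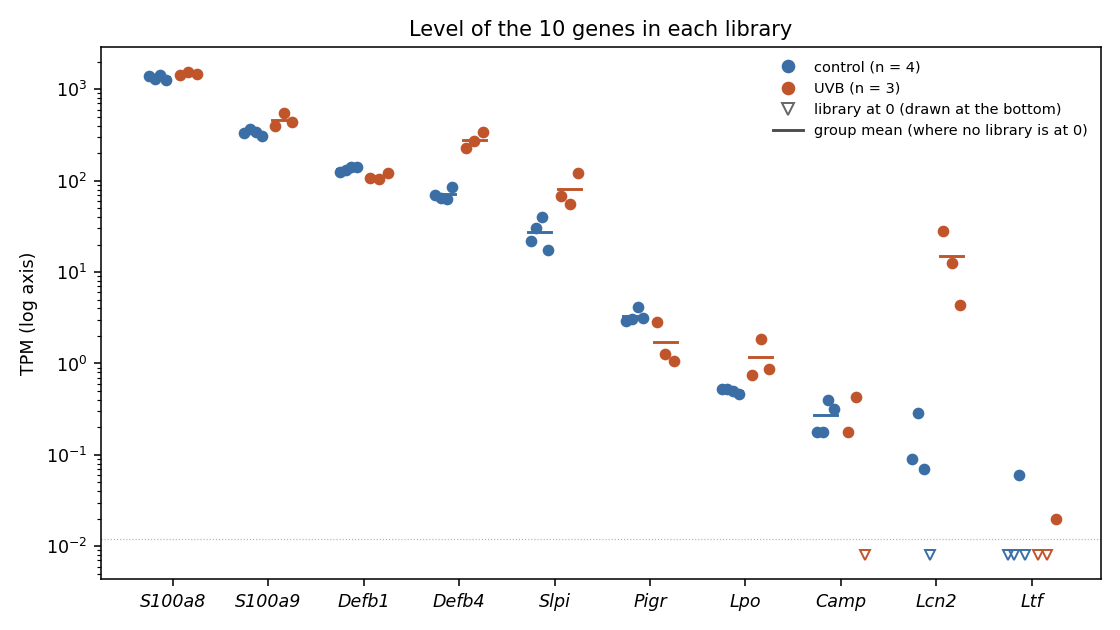
TPM of the 10 genes on a log axis, with 1 point per library, 4 control and 3 UVB, and a bar at the group mean where no library was at 0; libraries at 0 are drawn as open triangles at the bottom. Lcn2 stood near the end of the order in controls and at 4.40 to 28.4 TPM after UVB, while S100a8 stayed at the top at 1271 to 1564 TPM over all 7 libraries.

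Lcn2, Camp and Ltf were each at 3 counts or fewer in every control, and of these Lcn2 was the 1 called higher after UVB. Lcn2 encodes lipocalin 2, a secreted carrier that binds bacterial siderophores and thereby withholds iron. Its counts were 1, 3, 1 and 0 in controls a to d, and 288, 162 and 56 in UVB a, b and c. The UVB libraries held 13.7, 6.27 and 2.16 CPM (counts scaled to library size), so every one lay above every control, and UVB a held 6.33 times the level of UVB c. Against a floor of 3 counts in each control library, the UVB mean was at least 57.5-fold higher. Taken singly, UVB a was at least 107-fold, UVB b at least 49.0-fold and UVB c at least 16.9-fold above that floor. Without UVB a the bound for the mean was 32.9-fold. The bounds cover counting error only.

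The sequence before the start of Lcn2 is shown beside those of the other called genes found in the RefSeq promoter table for GRCr8, S100a9 and Lpo, because these 3 genes were called higher and differ in control level. Promoter entries were matched for 6 of the 10 genes: Lcn2, S100a9, Ltf, Lpo, Camp and Pigr. Each sequence runs 5′ to 3′ from 250 bases before to 50 bases after the start used in that table. Capitals mark matches, on either strand, to 4 patterns, and neighbouring matches run together. The first is GGG and CC with any 5 bases between them, a loose NF-kappaB pattern. The second is TATAAA, the TATA box. The others are TTNNGNAA, a loose pattern of C/EBP factors, and TGANTCA, that of AP-1.

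Lcn2 (chr3:36081731-36082030, minus strand): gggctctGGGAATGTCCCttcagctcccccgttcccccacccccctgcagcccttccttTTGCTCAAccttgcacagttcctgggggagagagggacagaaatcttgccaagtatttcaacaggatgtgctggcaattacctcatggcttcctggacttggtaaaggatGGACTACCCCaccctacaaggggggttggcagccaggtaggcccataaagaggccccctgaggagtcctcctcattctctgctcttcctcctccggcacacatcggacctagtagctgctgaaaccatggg
S100a9 (chr2:178490573-178490872, minus strand): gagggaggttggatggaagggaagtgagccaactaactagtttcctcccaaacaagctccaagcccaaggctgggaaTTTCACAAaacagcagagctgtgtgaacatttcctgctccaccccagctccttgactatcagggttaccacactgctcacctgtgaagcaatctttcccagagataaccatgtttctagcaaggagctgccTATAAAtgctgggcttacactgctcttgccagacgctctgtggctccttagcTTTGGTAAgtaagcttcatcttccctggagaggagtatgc
Lpo (chr10:73123407-73123706, minus strand): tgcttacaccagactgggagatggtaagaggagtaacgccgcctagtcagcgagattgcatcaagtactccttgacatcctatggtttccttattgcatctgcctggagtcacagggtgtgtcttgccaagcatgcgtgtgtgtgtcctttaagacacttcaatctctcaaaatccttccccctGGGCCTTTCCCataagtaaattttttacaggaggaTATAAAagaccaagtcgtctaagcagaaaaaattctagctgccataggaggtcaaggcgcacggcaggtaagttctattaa

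Lcn2 had 3 matches to the NF-kappaB pattern, 2 of which overlap, with the first starting 243 bases before the start, and 1 match to TTNNGNAA at 191 bases before it. S100a9 had no match to the NF-kappaB pattern, 2 to TTNNGNAA and 1 to TATAAA. Lpo had 2 overlapping matches to the NF-kappaB pattern and 1 to TATAAA at 31 bases before the start. These patterns are common: the NF-kappaB pattern was found in 47.3% of 33469 promoter windows of the same length and in 5 of the 6 matched genes, and TTNNGNAA in 41.3% of windows and 2 of the 6. TATAAA was in 14.2% of windows and 2 of the 6, and TGANTCA in 7.33% and 0 of the 6. A match describes letters in the window and no bound factor.

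S100a8 and S100a9 encode the subunits of calprotectin, which binds zinc and manganese and acts as an alarmin through TLR4 and RAGE; both are made by stressed keratinocytes as well as by myeloid cells. The genes are neighbours in GRCr8, with S100a7a on the other side of S100a8. S100a8 measured 167, 151, 167 and 151 CPM in controls a to d and 166, 191 and 167 CPM in UVB a, b and c. The groups overlapped, with UVB a and UVB c at the level of the higher controls, and the log2 fold change was 0.14 (SE 0.073). S100a8 was abundant in unirradiated glands, where it ranked 82 among 17246 genes by mean TPM.

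S100a9 measured 107, 116, 107 and 99.2 CPM in controls and 125, 179 and 139 CPM after UVB. Every UVB library was above every control, a pattern seen for 12.8% of all tested genes, and the log2 fold change was 0.46 (SE 0.12). Its call was lost in 6 of the 7 fits that left out 1 library and held only without UVB a. UVB b was the highest UVB library for both subunits. The ratio of S100a9 to S100a8 on the TPM scale was 0.236, 0.280, 0.237 and 0.242 in controls and 0.276, 0.352 and 0.301 after UVB. The groups overlapped in this ratio, because control b lay above UVB a.

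Beta-defensins are short cationic peptides held together by disulphide bonds. Beta-defensin 1 is the constitutive form of many epithelia, whereas beta-defensin 4 of rodents belongs to the inducible kind. Defb4 measured 11.2, 10.1, 9.90 and 13.6 CPM in controls and 35.3, 44.0 and 52.9 CPM after UVB. The lowest UVB library stood well above the highest control, and the log2 fold change was 1.98 (SE 0.15), or 3.94-fold. Its call held in each of the 7 fits that left out 1 library, with log2 fold changes of 1.83 to 2.11.

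Defb1 differed in the other direction by a small amount. It measured 18.1, 18.4, 19.7 and 20.2 CPM in controls and 14.9, 15.4 and 17.0 CPM after UVB. Every UVB library was below every control, which was so for 13.8% of tested genes, yet the log2 fold change of -0.28 (SE 0.089) was not called. The ratio of Defb4 to Defb1 on the TPM scale was 0.556, 0.495, 0.453 and 0.608 in controls and 2.14, 2.58 and 2.80 after UVB. Defb1 was the more abundant transcript in each control and Defb4 in each UVB library.

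**Figure D2:**
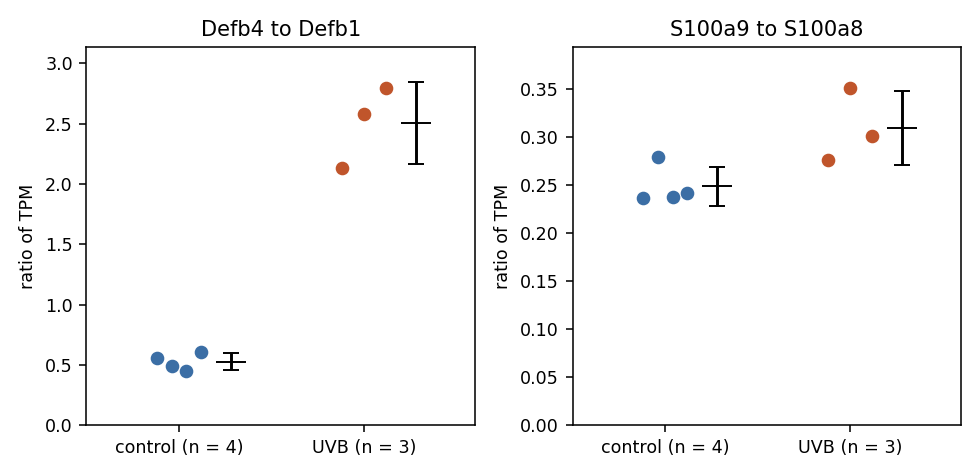
Ratio of Defb4 to Defb1 (left) and of S100a9 to S100a8 (right), both from TPM, with 1 point per library, 4 control and 3 UVB, and the mean ± SD beside them. The defensin ratio was 0.528 ± 0.0681 in controls and 2.50 ± 0.337 after UVB without overlap, while the S100 ratio was 0.249 ± 0.0206 and 0.310 ± 0.0384 with overlap.

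Slpi encodes secretory leukocyte peptidase inhibitor, which blocks neutrophil elastase and also kills bacteria. It measured 4.43, 5.93, 7.90 and 3.55 CPM in controls and 13.2, 11.3 and 23.9 CPM after UVB. Each UVB library was above each control, and UVB c held 2.12 times the level of UVB b. The log2 fold change was 1.56 (SE 0.33), and the call was lost without control a, b or d. Its spread within groups was wide in controls as well, where control c held 2.23 times the level of control d.

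Lpo encodes lactoperoxidase, a secreted haem enzyme that oxidises thiocyanate. It was scarce, with 20, 20, 25 and 19 counts in controls and 27, 86 and 40 counts after UVB. In CPM the controls were tight at 0.812 to 0.934, and the UVB libraries held 1.28, 3.33 and 1.54, all above the controls. The log2 fold change was 1.22 (SE 0.35), but it was 0.68 without UVB b, and the call held in 1 of the 7 fits that left out 1 library, the one without UVB a.

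Pigr encodes the polymeric immunoglobulin receptor, which carries dimeric IgA across epithelial cells into secretions. It measured 6.25, 7.37, 9.56 and 7.39 CPM in controls and 6.68, 3.06 and 2.50 CPM after UVB. UVB a lay within the controls, while UVB b and UVB c lay below all of them, and the log2 fold change of -0.92 (SE 0.32) was not called. On the TPM scale UVB a, at 2.87 TPM, was just under the lowest control of 2.88 TPM. Without UVB a the log2 fold change was -1.46 and Pigr was called lower. Jchain, which encodes the joining chain of the IgA that Pigr carries, was at 0.373 to 0.793 CPM in controls and 0.379 to 1.04 CPM after UVB, and did not pass (log2 fold change 0.038, SE 0.42, edgeR adjusted p = 0.965).

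Camp and Ltf were at the floor in both groups. Camp, the gene of cathelicidin, had 1, 1, 3 and 2 counts in controls and 1, 3 and 0 after UVB. Ltf, the gene of the iron binder lactoferrin, had 0, 0, 3 and 0 counts in controls and 0, 0 and 1 after UVB. Neither was tested, no fold is given, and a difference was not detectable at this depth. The floor of 3 counts covers counting error only.

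**Figure D3:**
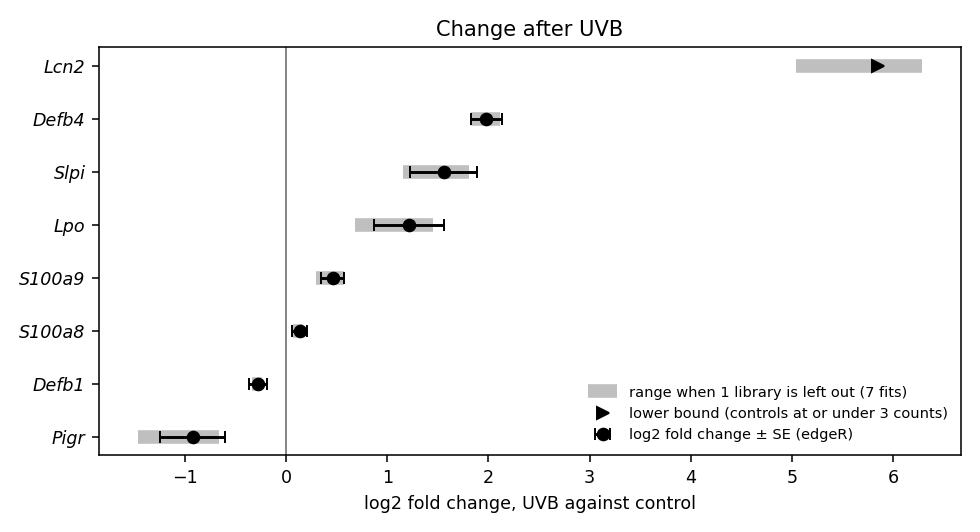
Log2 fold change of UVB against control for 7 tested genes with its SE (edgeR), and the lower bound for Lcn2, whose controls had 3 counts or fewer; grey bars span the 7 fits, or bounds, that left out 1 library. Defb4 has a grey bar from 1.83 to 2.11, Slpi, Lpo and Pigr have wider ones, and S100a8 and S100a9 lie within 0.57 of 0.

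The 3 UVB libraries did not share one ranking over these genes. Among the 8 tested genes, UVB a was the highest UVB library for 2 (Lcn2 and Pigr), UVB b for 3 (S100a8, S100a9 and Lpo) and UVB c for 3 (Defb4, Defb1 and Slpi). UVB a, with the most Lcn2, had the least Defb4, S100a9 and Lpo of the UVB group. The summed TPM of the 10 genes without S100a8 and S100a9 was 237 ± 13.7 in controls (SD, n = 4) and 492 ± 89.0 after UVB (SD, n = 3). Most of this difference lay in Defb4, with means of 70.9 TPM in controls and 280 TPM after UVB. Slpi went from 27.4 to 81.6 TPM, while Defb1 went from 134 to 111 TPM and Pigr from 3.30 to 1.73 TPM.

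Markers of neutrophils were examined because Lcn2, Camp, Ltf, S100a8 and S100a9 are all also made in that lineage. Of 17 neutrophil markers in the files, 5 could be tested, 2 were called higher and 1 lower. Over all tested genes, 6.30% were called higher and 6.74% lower. The filter keeps low genes by their higher group, and both higher genes were low in controls, so their tests are not a neutral selection. In all, edgeR called 3 of these markers without a filter and 1 with a minimum mean count of 50. The TPM fits with a filter called 0, the TPM fit without a filter called 2 and DESeq2 called 3. A stricter filter can leave out scarce genes before any test, so the lower counts are not failed tests of each gene. Csf3r, the receptor of granulocyte colony-stimulating factor, rose from 0.220 ± 0.0932 to 2.02 ± 1.08 CPM (log2 fold change 3.16, SE 0.49, edgeR adjusted p = 0.00608). Mmp9, a gelatinase, rose from 0.301 ± 0.0821 to 2.10 ± 1.04 CPM (2.77, SE 0.40, edgeR adjusted p = 0.00498). Il1r2 fell (-0.95, edgeR adjusted p = 0.0407), with overlapping groups and a call lost in 6 of the 7 fits that left out 1 library.

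Other neutrophil markers were scarce. Elane, a granule protease gene, had 0 counts in all 7 libraries, and Ngp, Retnlg, Cxcr1 and Fpr2 had at most 3 in any. Mpo reached 3 counts among controls and had 6, 1 and 15 counts in UVB a, b and c. UVB c was the highest library for Csf3r, Mmp9 and Mpo and the lowest UVB library for Lcn2. The summed level of the 17 markers was 13.5 to 22.4 CPM in controls and 17.6 to 28.4 CPM after UVB. The part of neutrophils in the Lcn2 values was not tested.

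**Figure D4:**
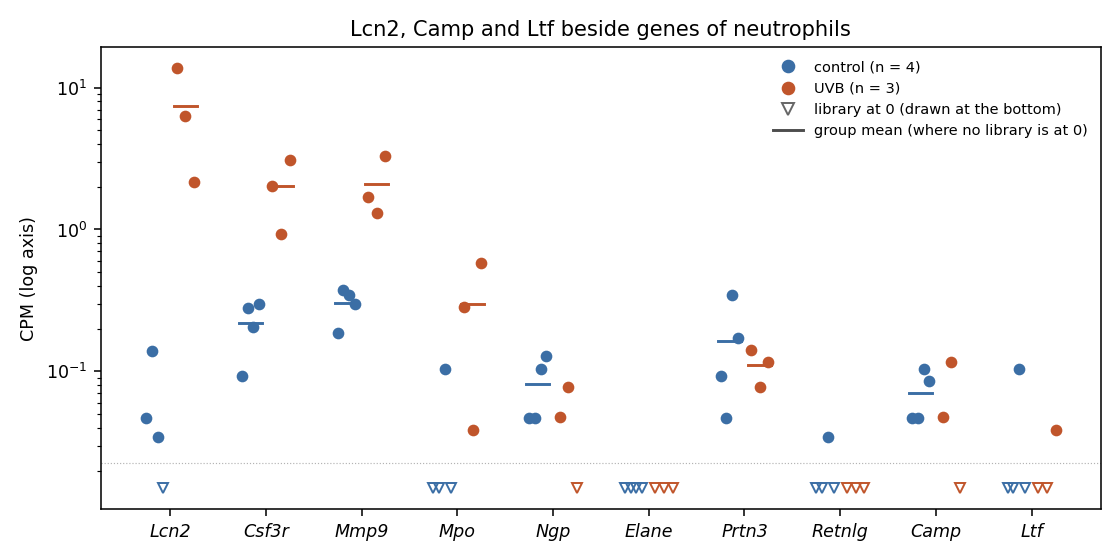
CPM on a log axis of Lcn2, Camp and Ltf and of 7 genes of neutrophils, with 1 point per library, 4 control and 3 UVB, bars at the group mean where no library was at 0, and open triangles for libraries at 0. Csf3r and Mmp9 were higher in each UVB library than in each control, Elane was at 0 throughout, and Camp and Ltf were at 3 counts or fewer.

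Other cell types that express some of these proteins were checked in the same way. For each count here and in the next paragraph, the edgeR share over all tested genes was 6.30% higher and 6.74% lower. Meibocyte markers stood at a summed 104383 to 129601 CPM in controls and 101330 to 124118 CPM after UVB, so the labelled tissue was present in every library, with 1 of 16 markers called higher and 4 lower by edgeR and 4 higher and 4 lower by DESeq2. Of 13 macrophage markers, 5 were called higher and 0 lower (edgeR; none was lower at an unadjusted p under 0.05 or by DESeq2), and 3 were called without UVB a, UVB c, control c or control d, where Mrc1 and C1qc lost their call. The 5 called include Cd14, which is also among the receptors and partners below. The sum of the 13 markers was 164 to 424 CPM in controls and 208 to 347 CPM after UVB. Lyz2, which was not called, made up much of this sum. It stood at 63.5 to 248 CPM in controls, highest in control b, and at 53.8 to 83.3 CPM after UVB. Epidermal keratinocyte markers summed to 13268 to 16166 CPM in controls and 15456 to 18299 CPM after UVB, with 1 of 10 called higher and 1 lower by edgeR and 3 higher and 1 lower by DESeq2; without control c edgeR called 1 in all. Markers of conjunctival epithelium and goblet cells summed to 4195 to 5587 CPM and 5161 to 6459 CPM, and 0 of 7 tested were called by edgeR, where 2 had an unadjusted p under 0.05 and DESeq2 called 1.

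Of the lacrimal and serous gland markers other than Lpo and Ltf, 8 were in the files, 4 were tested and 0 were called by edgeR, where 1 had an unadjusted p under 0.05, and 1 was called by DESeq2 and without control a. Bpifa2 had 0 counts in every library, and the sum was 100 to 131 CPM in controls and 91.3 to 124 CPM after UVB. Plasma cell markers had 1 of 6 tested called lower, Sdc1, which epithelia also express and which lost its call without UVB c, control c or control d, and summed to 1930 to 2046 CPM and 1543 to 1659 CPM. Of the 9 markers in the files, 3 had 3 counts or fewer in every library, and Jchain added little to the sum. The sum is therefore no measure of plasma cells alone. Skeletal muscle markers summed to 2460 to 3318 CPM in controls and 1649 to 2905 CPM after UVB, with 1 of 8 called lower, Actn3, a call lost without UVB b or any 1 control; DESeq2 called 2, as did edgeR without UVB c. The part of these cell types in the values of the 10 genes was not tested.

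Other antimicrobial genes moved in both directions. For this and each related list below, the share called over all tested genes was 6.30% higher and 6.74% lower. Counts for a list are a description. Of 30 in the files, 18 were tested, 3 were called higher and 3 lower, with a median log2 fold change of -0.39, against -0.0058 over all tested genes. Defb14, a further inducible beta-defensin next to Defb4 in GRCr8, rose from 4.20 ± 1.09 to 12.9 ± 4.82 CPM (log2 fold change 1.63, SE 0.29, edgeR adjusted p = 0.0115). Chi3l1, a chitinase-like protein of activated macrophages and epithelia, rose by 1.69 (SE 0.30, edgeR adjusted p = 0.0143) and was highest in UVB a, as Lcn2 was.

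Wfdc21, which encodes a whey acidic protein domain inhibitor related to Slpi, fell from 28.9 ± 5.71 to 12.1 ± 2.40 CPM (log2 fold change -1.27, SE 0.19, edgeR adjusted p = 0.00656). Plac8 fell by 0.87 on the log2 scale (SE 0.15, edgeR adjusted p = 0.0101). The remaining calls, named after their values were seen, were Pglyrp2, a peptidoglycan recognition protein (0.80), which lost its call without UVB a or UVB c, and Nos2, the inducible nitric oxide synthase (-1.59), which lost it in 5 of the 7 fits that left out 1 library. Slpi and Wfdc21, of 1 inhibitor family, differed in direction.

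The S100 family around S100a8 and S100a9 split evenly. Of 9 tested members other than these, 3 were called higher and 3 lower, with a median log2 fold change of 0.0080 whose sign changed in 4 of 18 alternatives. S100a7a, the neighbour of S100a8, rose from 2.79 ± 0.539 to 6.53 ± 1.91 CPM (log2 fold change 1.23, SE 0.23, edgeR adjusted p = 0.0119). S100a6, a gene of proliferating cells, rose by 0.68 (edgeR adjusted p = 0.0107), while S100a3, known from hair cuticle, fell by 1.13 on the log2 scale (edgeR adjusted p = 0.0116). S100b, a marker of glia and Schwann cells, fell as well (-1.005, edgeR adjusted p = 0.0108). S100a4 (0.67) and S100a1 (-1.54) were also called and are named after their values were seen; S100a4 lost its call without control c, and S100a1 without UVB b or control b, c or d. S100a11, the most abundant of the list at 1338 TPM in controls, was close to S100a8 in level and did not pass (log2 fold change -0.093, edgeR adjusted p = 0.623).

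Among 10 other alarmins tested, 2 were called higher and 1 lower, and the median was -0.056, with another sign in 2 of 18 alternatives. Without UVB b, UVB c or control c, 1 gene in all was called. Both higher genes were of the interleukin 36 group, epithelial cytokines of the interleukin 1 family. Il36g rose from 1.31 ± 0.319 to 4.70 ± 2.17 CPM (log2 fold change 1.86, SE 0.34, edgeR adjusted p = 0.0104). Il36a had 3, 0, 0 and 2 counts in controls and 9, 32 and 40 counts after UVB, at least 8.35-fold higher than the floor. In 3 of the 7 fits that left out 1 library (UVB b, UVB c or control c) it was not tested or not called. Like Lcn2, Il36a passed the filter on low counts through its UVB libraries alone, so no p-value is given for it. Il36g and Il36a were both lowest in UVB a among the UVB libraries, the order seen for Defb4. Lgals3 fell by 0.25 on the log2 scale (edgeR adjusted p = 0.0404), a call lost in 6 of the 7 fits. Anxa1, the most abundant of the list, had a log2 fold change of 0.31 (edgeR adjusted p = 0.111).

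Of the receptors and partners of these proteins, 14 were tested, 2 were called higher and 0 lower, with a median of 0.23; 1 lower gene, Lrp2, had an unadjusted p under 0.05 by edgeR, and DESeq2 called 0 lower. Cd14, a co-receptor of TLR4, rose from 12.6 ± 1.87 to 23.4 ± 2.50 CPM (log2 fold change 0.89, SE 0.13, edgeR adjusted p = 0.00453). Cd14 is also among the called macrophage markers above, so these are not separate results. Emb, which encodes embigin, a described receptor of S100A8 and S100A9, rose from 32.2 ± 3.13 to 47.2 ± 1.63 CPM (0.55, SE 0.083, edgeR adjusted p = 0.00594). Tlr4 itself (0.32, edgeR adjusted p = 0.288) and Ager, the gene of RAGE (0.29, edgeR adjusted p = 0.473), did not pass. The lipocalin 2 receptor genes Slc22a17 (0.056, edgeR adjusted p = 0.617) and Lrp2 (-0.83, edgeR adjusted p = 0.0955) did not pass either. Bsg, the most abundant of this list, had a log2 fold change of 0.14 (edgeR adjusted p = 0.148).

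Cytokines known to induce antimicrobial genes in epithelia were scarce, and their receptors were well expressed. Il17a, Il17f and Il22 had at most 3 counts in any library. Of 21 tested genes, 6 were called higher and 1 lower, with a median of 0.14. Over all tested genes, 6.30% were called higher and 6.74% lower. Without UVB a, control c or control d, 3 or 4 genes of the list in all were called. Osmr, the receptor chain for oncostatin M, rose from 22.7 ± 1.02 to 34.7 ± 1.83 CPM (log2 fold change 0.61, SE 0.072, edgeR adjusted p = 0.00238). Osm itself rose from at most 6 counts in a control to 23, 13 and 15 counts (2.69, SE 0.61). Its call was lost without UVB a, control c or control d. Osm passed the filter on low counts through its UVB libraries alone, so no p-value is given for it.

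Il1rl2, the interleukin 36 receptor, rose by 0.92 (SE 0.18, edgeR adjusted p = 0.0133), so ligand and receptor genes of that group were both called higher. Il20rb fell by 0.52 on the log2 scale (edgeR adjusted p = 0.0117). Named after their values were seen, Il6, Il6st and Il1r1 were called as well: Il6 reached 2 counts among controls and had 82, 15 and 12 in UVB a, b and c, at least 12.8-fold higher than the floor (at least 4.08-fold without UVB a), and lost its call without any 1 of the 4 controls. Il6, like Osm and Il36a, passed the filter on low counts through its UVB libraries alone. Il6st (0.27) lost its call in 4 and Il1r1 (0.60) in 5 of the 7 fits. Tnfrsf1a, the most abundant of the list, had a log2 fold change of 0.12 (edgeR adjusted p = 0.265).

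The signalling genes downstream of these receptors were listed apart. Of 16 pattern receptors and adaptors tested, Myd88 rose by 0.36 (SE 0.061, edgeR adjusted p = 0.00797) and Traf3ip2, the adaptor of the interleukin 17 receptor, fell by 0.47 on the log2 scale (SE 0.065, edgeR adjusted p = 0.00417). The list median of 0.085 changed sign in 3 of 18 alternatives. Irak1, its most abundant gene, had a log2 fold change of 0.14 (edgeR adjusted p = 0.258). Of 22 transcription factor genes tested, 2 were called higher and 1 lower, with a median of 0.064 and another sign in 1 of 18 alternatives; DESeq2 called 6 higher and 1 lower, and edgeR called 5 genes in all without UVB a.

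Bcl3, a nuclear cofactor of NF-kappaB, rose from 8.59 ± 1.37 to 19.6 ± 1.83 CPM (log2 fold change 1.18, SE 0.13, edgeR adjusted p = 0.0023), and kept its call in all 7 fits that left out 1 library. Fosl1 rose by 0.84 (edgeR adjusted p = 0.0159), a call lost without UVB c, and its counts were not whole in any library. Elf3, an epithelial ETS factor, fell by 0.52 on the log2 scale (edgeR adjusted p = 0.0247), a call lost in 5 of the 7 fits. Cebpa, the most abundant of the list, had a log2 fold change of 0.015 (edgeR adjusted p = 0.947).

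Over all tested genes, 6.30% were called higher and 6.74% lower. Protease inhibitors and the proteases that process cathelicidin had 3 of 11 tested genes called higher and 4 lower, and a median of 0.065. Without UVB a or any 1 control, 3 or 4 genes in all were called. Timp1, an inhibitor of metalloproteinases, rose from 5.17 ± 0.533 to 47.0 ± 25.6 CPM (log2 fold change 3.18, SE 0.35, edgeR adjusted p = 0.00382), and was highest in UVB a, as Lcn2 was. Klk8 rose by 0.64 (edgeR adjusted p = 0.00844) and Serpinb2 by 1.38 (edgeR adjusted p = 0.0223), the latter losing its call in 4 of the 7 fits. Spink5, an inhibitor of epidermal kallikreins, fell by 0.74 on the log2 scale (edgeR adjusted p = 0.0245), a call lost without control a, b or d. Serpina1 (-1.66), Klk5 (-1.27) and Cstb (-0.28) were also called lower and are named after their values were seen; each lost its call in 5 of the 7 fits. Stfa3, the most abundant gene of the list, had a log2 fold change of 0.42 (edgeR adjusted p = 0.182).

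**Figure D5:**
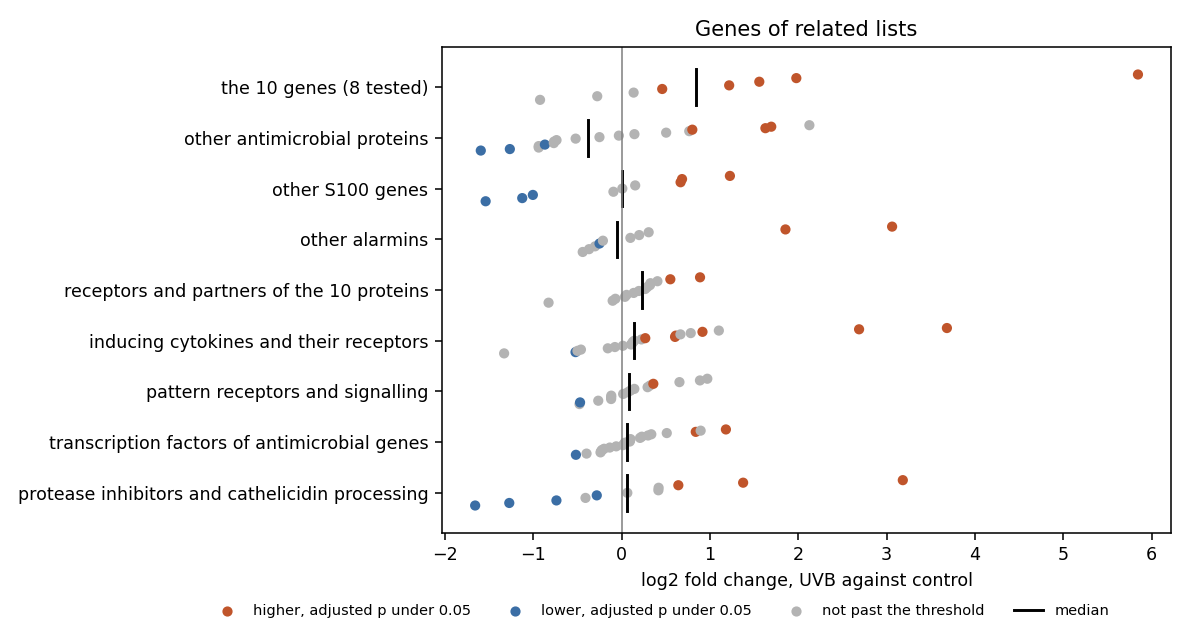
Log2 fold change of UVB against control, 1 point per tested gene, for the 8 tested genes and 8 related lists; colours give the edgeR call and black bars the median, and Lcn2, Il36a and Il6 stand at their lower bounds. The 8 tested genes have a median of 0.84, and the medians of the lists lie between -0.39 and 0.23. The 8 genes were chosen with this comparison known, and Lcn2 passed the filter through its UVB libraries alone. Their median is therefore a description and no result about the set.

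The genes nearest in pattern were found by the root mean square difference between centred log2 CPM profiles over the 7 libraries, among 11965 other genes with a mean count of at least 50. For Lcn2 the nearest was Hdc, at a distance of 1.08 against a range of 7.37 for Lcn2 itself, followed by LOC102555453 and Sprr1b. For Defb4 they were Galnt6, Fetub and Gsdmc, at distances of 0.208 to 0.243 against a range of 2.41. For Slpi they were C1qb, Mybbp1a and F5 (0.289 to 0.312 against a range of 2.73), and for Pigr AABR07049499.1, Dhrs7c and Klhl33 (0.107 to 0.205 against a range of 1.90). S100a8 and Defb1, which spanned 0.342 and 0.436 on the log2 scale, had nearest genes at 0.0177 (Elac2) and 0.0383 (Spns2), and S100a9 had Kcnj8 at 0.0558. These distances are a description of 7 libraries and have no test.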

How the data were processed

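RNA sequencing of 7 meibomian gland libraries was used, 4 control and 3 UVB. The authors deposited expected counts per gene (12.5% of values not whole, no normalisation) and TPM, the length-scaled transcript abundance computed by the authors. Per the submitters' processing notes, FastQC, Trimmomatic, DRAGEN, Picard and the build rn7 were used; the annotation and strand handling are not given in the sources used here. Unquoted commas in gene names shift cells, which is why each row was read from its right end; 5 of 17251 rows without 7 readable values were left out. Column names give the group but no label's replicate number.

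Rounded counts were tested in edgeR 4.0.16 (R 4.3.3; quasi-likelihood, robust, TMM, filterByExpr by group). The filter keeps low genes by their higher group, so the tested genes are not a neutral selection. The design named raw counts or counts rounded where estimated; rounding applied. P-values are two-sided, with Benjamini-Hochberg adjustment over all tested genes and a threshold of 0.05. Each SE was obtained as the size of the log2 fold change over the root of the F statistic. CPM uses the TMM-scaled library size. Libraries of a group differed by more than sampling noise (lowest chi-square per degree of freedom 10.5). Neither the labels nor the column names state that each library comes from its own animal, so p-values measure the spread between these samples.

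The genes and lists were chosen with earlier results of these data known. Named genes are the 10 genes and, of each of 8 related lists, up to 4 called genes by p-value and the most abundant by TPM. Of 276 listed symbols, 42 were not analysed here. The RefSeq tables of GRCr8 served for promoter sequences and neighbours. Fits were also run on simulated counts. These held no changed gene with a group mean at the floor, so they do not cover genes such as Lcn2, Il6 or Il36a. Other settings tried were the full DESeq2 1.42.0 test, limma-voom (limma 3.58.1), edgeR with DESeq2 size factors, with library size alone or with upper quartile factors, no filter, a minimum mean count of 50, no robust estimation, limma on log2(TPM + 1) or log2(TPM + 0.1) after a minimum mean TPM of 1, log2(TPM + 1) without a filter, and leaving out each library.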

Additional observations from a re-analysis of the deposited data

Results flagged for a closer look

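The CPM of 39 named genes, from the 10 and from the related lists, was examined for a control library far from the other 3. Chance gives 1 in 20, or 1.95, and 2 were found, both in control b. For Chi3l1, control b stood at 15.9 CPM and controls a, c and d at 12.6 to 13.1 CPM, so the gap made up 0.861 of the range. For Tnfrsf1a, control b stood at 152 CPM and controls a, c and d at 163 to 165 CPM, so the gap made up 0.830 of the range; its counts were not whole in any library. Lcn2, Camp and Ltf, at 3 counts or fewer in every control, were not examined, and none of the other 7 of the 10 genes had such a control. Groups of 3 were not examined in this way.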

How the results depend on the processing

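No paired analysis was possible because column names hold no number that ties them to a labelled replicate. Over 18 alternatives the 8 tested genes gave 141 log2 fold changes: 118 kept their direction and their side of the threshold, 18 lost a call, 5 gained one and 0 changed direction. The genes were chosen with this comparison known and the alternatives refit the same libraries, so kept calls are a description. Lcn2, which passed the filter on low counts through its UVB libraries alone, and Defb4 kept their call in all 18. S100a9 lost it in 7 and Lpo in 8 of 15 (Lpo was not tested in 3), Slpi in 3; Pigr gained one in 3 (DESeq2, limma-voom, without UVB a) and Defb1 in 2 (the TPM fits with a filter). The number of the 10 genes called ran from 2 to 6 when 1 library was left out and was 3 under log2(TPM + 1) without a filter; the number over all genes ran from 851 to 1898 and was 1137, against 1787. The cause was not tested. Over the 16 gene lists, 22 of 288 medians changed sign and 47 of 288 counts of calls moved by over 1.5 times. Of the 52 list genes called, 28 kept the call in all 7 fits without 1 library. Depth limits Camp and Ltf, at the floor in both groups, and Lpo.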

Other observations

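Some antimicrobial genes were too scarce for the report's comparisons, and their counts were looked at after the data were seen. Reg3g, a lectin of the gut and of wounded skin, had 5, 1, 1 and 3 counts in controls a to d and 19, 9 and 4 counts in UVB a, b and c, and Wfdc18 had 0, 2, 1 and 1 counts in controls and 11, 2 and 6 counts after UVB. In both, UVB a was highest, as for Lcn2, and 1 UVB library overlapped the controls. Defb3 had 13, 1, 2 and 17 counts in controls and 4, 77 and 37 counts after UVB, with UVB a within the controls, and did not pass the test (log2 fold change 2.13, SE 0.94, edgeR adjusted p = 0.177). Il17c, an epithelial cytokine, had 2, 1, 12 and 7 counts in controls and 0, 2 and 0 after UVB. Lyz2, the lysozyme gene, ranged widely within controls, with 5320 counts in control b and 1410 to 2992 in the others. Its counts were not whole in 5 libraries.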
